A study of Mus musculus with 12 samples.

Results

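Keratin 8 and keratin 18, the muscle intermediate filament genes Des, Vim, Nes, Synm and Sync, the nuclear lamin gene Lmna and the linker gene Plec were followed in RNA-seq libraries of mouse quadriceps. The 9 genes were picked by name out of 43346 listed genes, and all 9 had enough reads to be tested, Krt8 and Krt18 only through their reads in old muscle. They were put together around the keratins, whose high level in old vehicle over young muscle was already known from these data. Krt8 and Krt18 are therefore described in both comparisons with young with no p-value. The 12 libraries came from C57BL/6 mice in 3 groups of 4. The D+Q group was 24 months old and had received 5 mg/kg dasatinib, a tyrosine kinase inhibitor, with 50 mg/kg quercetin, a plant flavonoid, by gavage from month 20 on 3 consecutive days in each 2 weeks. The old vehicle group had the same age and schedule and received the ethanol, polyethylene glycol and Phosal 50 vehicle alone. The young group was 6 months old, and no gavage is stated for it, so age and gavage cannot be told apart in any comparison with young. The pair of drugs is used as a senolytic, meant to remove senescent cells. Nothing in the labels says that each library is 1 mouse, and the p-values below then speak only of how these libraries vary, which may be technical.

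Intermediate filaments are rope-like polymers that give cells mechanical strength. Keratins form them only as pairs of a type I and a type II chain, and Krt18 with Krt8 is the pair of simple epithelia such as liver and gut lining. In mature muscle fibres desmin is the main cytoplasmic filament and ties Z-discs to each other, to the cell membrane, to mitochondria and to the nucleus, while synemin and syncoilin join it and plectin anchors it. Vimentin and nestin belong to immature muscle and to other cells of the tissue, and A-type lamins line the nucleus.

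Krt8 lies on the minus strand of chromosome 15, chr15:101996711-102004342 in mm10, and Krt18 on the plus strand at chr15:102028216-102032026, with 23873 bases between them. Because the levels of these neighbours moved together across the libraries, their promoter windows are shown, from RefSeq on GRCm38.p6, 5′ to 3′ on the gene's strand, running from 250 bases before to 50 bases after the annotated start. Of the 9 genes, 8 had such a window in that table. Capitals mark matches on either strand to TATAAA, the core of a TATA box, and to the E-box CANNTG, the motif read by myogenic factors such as myogenin. Overlapping matches are run together. The windows were also searched for the GC box GGGCGG and the AP-1 site TGANTCA.
Krt8, chr15:102004293-102004592, minus strand: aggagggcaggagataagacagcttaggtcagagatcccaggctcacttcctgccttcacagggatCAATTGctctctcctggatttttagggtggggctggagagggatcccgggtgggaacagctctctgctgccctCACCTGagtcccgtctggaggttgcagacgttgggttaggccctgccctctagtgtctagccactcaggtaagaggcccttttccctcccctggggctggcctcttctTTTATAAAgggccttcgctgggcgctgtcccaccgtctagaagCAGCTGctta
Krt18, chr15:102027966-102028265, plus strand: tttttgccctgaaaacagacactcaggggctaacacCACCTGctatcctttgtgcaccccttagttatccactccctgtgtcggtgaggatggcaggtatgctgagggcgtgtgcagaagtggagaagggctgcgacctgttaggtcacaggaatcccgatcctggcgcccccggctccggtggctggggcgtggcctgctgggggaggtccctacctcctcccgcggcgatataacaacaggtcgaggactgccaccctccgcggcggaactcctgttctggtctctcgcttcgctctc
The Krt8 window held 3 E-box matches, beginning at positions -184, -111 and 41 from the annotated start. It also held 2 overlapping TATAAA matches, one on each strand, beginning at -3 and -1, so that both run across the annotated start. The Krt18 window held 1 E-box match, at -214. Neither window held GGGCGG or TGANTCA. Of 32851 windows of the same length in the table, 72.3% held CANNTG, 13.6% TATAAA, 35.7% GGGCGG and 7.81% TGANTCA. The windows have a GC content of 58% for Krt8 and 61.3% for Krt18.

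Library totals ran from 26715140 to 49792488 reads, and 3 reads correspond to between 0.0561 and 0.106 CPM (counts-per-million of TMM-scaled library totals). The skeletal muscle markers were abundant everywhere, with summed levels of 76040 to 126700 CPM in D+Q muscle, 77670 to 101000 CPM in old vehicle and 71970 to 117000 CPM in young. The libraries differed in how strongly a gene's level followed the GC content of its transcript. The slope of that relation, in log2 units per 10 points of GC and against the mean of all libraries, ran from -0.25 to 0.434 in D+Q, from -0.104 to 0.256 in old vehicle and from -0.633 to 0.297 in young. Young libraries 4 and 3 stood apart at -0.633 and -0.469, followed by D+Q library 4 at -0.25. The transcripts of all members but Vim are richer in GC than the median of 49.65% over 11785 genes, with Plec at 61.3%, Krt8 at 57.1%, Des at 56.5% and Vim at 46.5%. For the comparisons with young, values with the slope taken into the fit and values without young libraries 3 and 4 are given beside the results they move most.

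Krt18 was nearly silent in young muscle and present in every old library. It had 474, 283, 208 and 124 reads in the 4 D+Q libraries, 383, 648, 1903 and 1360 in old vehicle, and 4, 8, 3 and 3 in young. Scaled, that was 11.3, 6.69, 4.89 and 2.75 CPM in D+Q muscle, 7.16, 14.1, 51.6 and 30.8 CPM in old vehicle, and 0.0932, 0.178, 0.106 and 0.085 CPM in young. Every old library stood above every young one, while D+Q and old vehicle overlapped, because D+Q library 1 lay above old vehicle library 1. Old vehicle libraries 3 and 4 were the highest of all.

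Krt8, the partner chain, had fewer reads and the same order. It had 118, 58, 19 and 5 reads in D+Q and 35, 77, 229 and 156 in old vehicle. In young it had 2 reads in library 2 and 0 in the other libraries, each of which allows up to between 0.0699 and 0.106 CPM. The levels were 2.82, 1.37, 0.447 and 0.111 CPM in D+Q and 0.654, 1.67, 6.2 and 3.53 CPM in old vehicle, so these groups overlapped. The libraries with the most Krt18 within each old group were those with the most Krt8. Within D+Q library 1 was highest and library 4 lowest for both, and within old vehicle library 3 was highest and library 1 lowest.

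**Figure D1:**
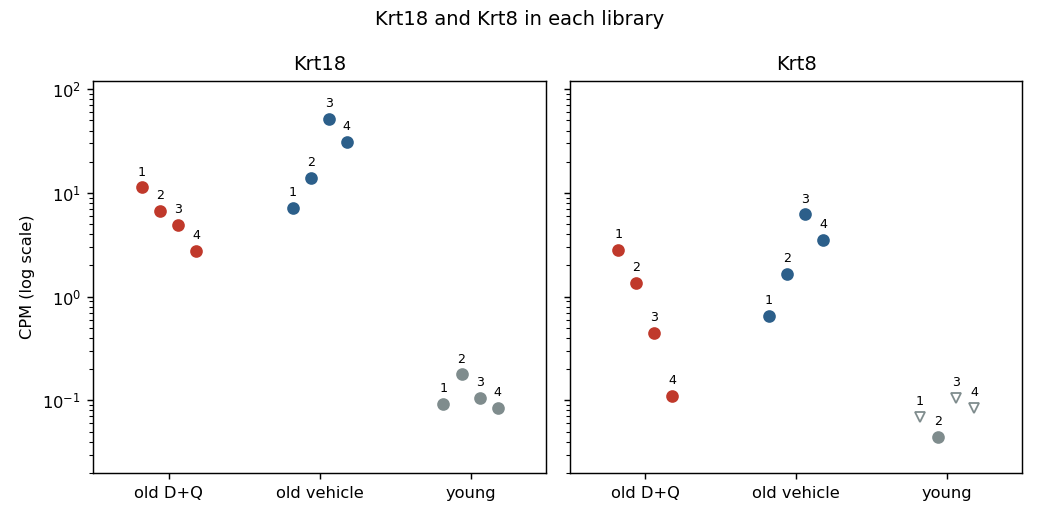
Krt18 (left) and Krt8 (right) in CPM on a log axis, 1 point per library with its replicate number, for old D+Q, old vehicle and young. Open triangles mark libraries with 0 reads, drawn at the level of 3 reads. All old libraries lie above all young ones for Krt18, from 2.75 to 51.6 CPM against at most 0.178 CPM, and the D+Q and old vehicle points overlap.

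Summed over the 4 libraries of a group, Krt18 had 4294 reads in old vehicle and 18 in young, a ratio of 199.9 after scaling (exact 95% interval 126.3 to 337.6). Krt8 had 497 reads in old vehicle and 2 in young, a ratio of 208 with an interval of 57.3 to 1724. In D+Q over young the ratio was 53.3 for Krt18 (33.6 to 90.2) and 88.1 for Krt8 (24.1 to 732). These intervals cover counting error only, and the spread between the 4 old vehicle libraries was wide, with an SD of 76.4% of the mean for Krt18 and 80.8% for Krt8. Both keratin genes have a processed pseudogene with a similar transcript in GENCODE M21, at 90% identity or more over at least 200 bases. These copies were not analysed here, and how reads that match several places were counted is not given in the sources used here.

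D+Q muscle had less of both keratins than old vehicle muscle on average, and the difference did not pass the test over all genes. Krt18 averaged 6.41 ± 3.64 CPM in D+Q, against a mean of 25.9 ± 19.8 CPM in old vehicle (SD, n = 4), a log2 fold change of -2.01 ± 0.54 SE, or 4.04-fold lower. The unadjusted p was 0.00251 and the adjusted p was 1 in edgeR's quasi-likelihood test across all genes, against an adjusted p of 0.497 in DESeq2. Krt8 averaged 1.19 ± 1.21 CPM in D+Q, against a mean of 3.02 ± 2.44 CPM in old vehicle, a log2 fold change of -1.34 ± 0.76 SE (edgeR adjusted p = 1). Leaving out any 1 library kept the Krt18 value between -2.44 and -1.43 and the Krt8 value between -2.22 and -0.72. The differences were largest without D+Q library 1 and smallest without old vehicle library 3. The old vehicle libraries in this comparison are those whose high keratin level led to the choice of these genes.

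Against young, the D+Q libraries still held higher keratin levels. For Krt8 this was slight in D+Q library 4, whose 5 reads gave 0.111 CPM. In young library 3, 3 reads would give 0.106 CPM. Krt18 had a log2 fold change of 5.72 ± 0.78 SE and Krt8 of 6.2 ± 1.46 SE, given here with no p-value, since this comparison shares the nearly empty young libraries that led to the choice of these genes. Without young libraries 3 and 4 the values were 5.52 and 5.53, and leaving out any 1 library gave 5.29 to 6.01 for Krt18 and 5.31 to 8.61 for Krt8, the highest without young library 2, which holds the only 2 young Krt8 reads.

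The balance of the pair did not differ detectably between the old groups. Krt18 made up 80.1, 83, 91.6 and 96.1% of the reads of both genes in the D+Q libraries and 91.6, 89.4, 89.3 and 89.7% in old vehicle. The mean was 87.7 ± 7.46% in D+Q and 89.99 ± 1.1% in old vehicle (SD, n = 4), a difference of -2.29 points (two-sided exact permutation test, p = 0.629, smallest possible p = 0.0286). With 1 library left out the difference ran from -5.1 points without D+Q library 4 to 0.25 points without D+Q library 1. The old vehicle shares lay within a narrow band although the reads of the pair differed widely between those libraries, and the D+Q shares were spread more. The exact 95% binomial interval was 76.6 to 83.2% for D+Q library 1 and 91.2 to 98.7% for D+Q library 4, so these libraries differed beyond counting error. Per length, Krt18 was 5.18 to 31.97 times as high as Krt8 in D+Q and 10.7 to 14.1 times in old vehicle.

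The other simple epithelial genes had few reads in all 3 groups. The simple epithelium list, which includes the adhesion genes Epcam and Cdh1, the claudins Cldn3, Cldn4 and Cldn7 and the keratins Krt7 and Krt19, summed over its 10 genes to 2.91 to 3.81 CPM in D+Q muscle, 2.38 to 3.62 CPM in old vehicle and 1.73 to 3.88 CPM in young. The overlap with young rests on young library 2 at 3.88 CPM, since the other young libraries, at 1.73 to 2.02 CPM, lay below every old one. The level of Krt8 plus Krt18 was 2.86 to 14.1 CPM in D+Q muscle, 7.81 to 57.8 CPM in old vehicle and 0.085 to 0.223 CPM in young. Epcam, an adhesion molecule of many epithelia, had 2 reads in all D+Q, 3 in all old vehicle and 1 in all young libraries. Cdh1 had more, with 145 reads in D+Q, 147 in old vehicle and 162 in young. Cldn7 had 0, 1 and 2 reads in the same groups. Krt7, too low to be tested, had 25 reads in D+Q, 18 in old vehicle and 5 in young. It was 0.0709 to 0.191 CPM in D+Q, 0.0679 to 0.131 CPM in old vehicle and 0 to 0.0668 CPM in young. The highest young library and the lowest library of each old group all stood at the level of 3 reads, so only scaling set them apart. Among tested genes 9.35% did not overlap between old vehicle and young and 6.69% between D+Q and young. Of the 10 genes, 3 had enough reads to be tested and 0 were called in any comparison. Elf3, an epithelial transcription factor and the list's most read gene, had log2 fold changes of 1.31 ± 0.40 SE in D+Q over young (edgeR adjusted p = 0.158), 1.11 ± 0.40 SE in old vehicle over young (edgeR adjusted p = 0.211) and 0.2 ± 0.38 SE in D+Q over old vehicle.

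Markers of epidermis and mesothelium, other tissues with keratins, did not go together. The epidermal keratins Krt5, Krt14 and Krt1 were nearly absent, while Trp63 had reads in every library. Krt5 and Dsg3 had 0 reads in every library, and Krt14 and Krt1 had 1 read each in young and 0 in the old groups. Krt10 had log2 fold changes of -0.27 ± 0.17 SE in old vehicle over young and -0.52 ± 0.17 SE in D+Q over young. For Sfn they were 0.87 ± 0.39 SE and 0.97 ± 0.39 SE, and neither gene passed. Trp63, a p53-family transcription factor of basal epidermis, carried most of the epidermis list's reads and rose in old vehicle over young, with 26.3, 32.9, 25.9 and 33.3 CPM against 12.8, 13.9, 13.7 and 16.6 CPM (log2 fold change 1.05 ± 0.15 SE, edgeR adjusted p = 0.00359). In D+Q it stood at 25.1, 35.3, 25.1 and 34.6 CPM, higher than young by 1.07 ± 0.15 SE (edgeR adjusted p = 0.00714), with a log2 fold change of 0.02 ± 0.15 SE against old vehicle. Both calls held without any 1 library and with the GC slope in the fit. Without young libraries 3 and 4 the D+Q call ended (1.17 ± 0.19 SE, adjusted p = 0.0673) and the old vehicle call held (adjusted p = 0.0299). With Trp63 in it, the list summed to 28.1 to 38 CPM in D+Q muscle, 29 to 36.4 CPM in old vehicle and 16.2 to 19.6 CPM in young. The 4 mesothelium markers summed to 0.597 to 1.25 CPM in D+Q muscle, 0.589 to 1.08 CPM in old vehicle and 0.638 to 2.21 CPM in young, mostly from Msln. The part of other cell types in the keratin levels was not tested beyond these values, and in whole muscle more cells of a type and more RNA per cell cannot be told apart.

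**Figure D2:**
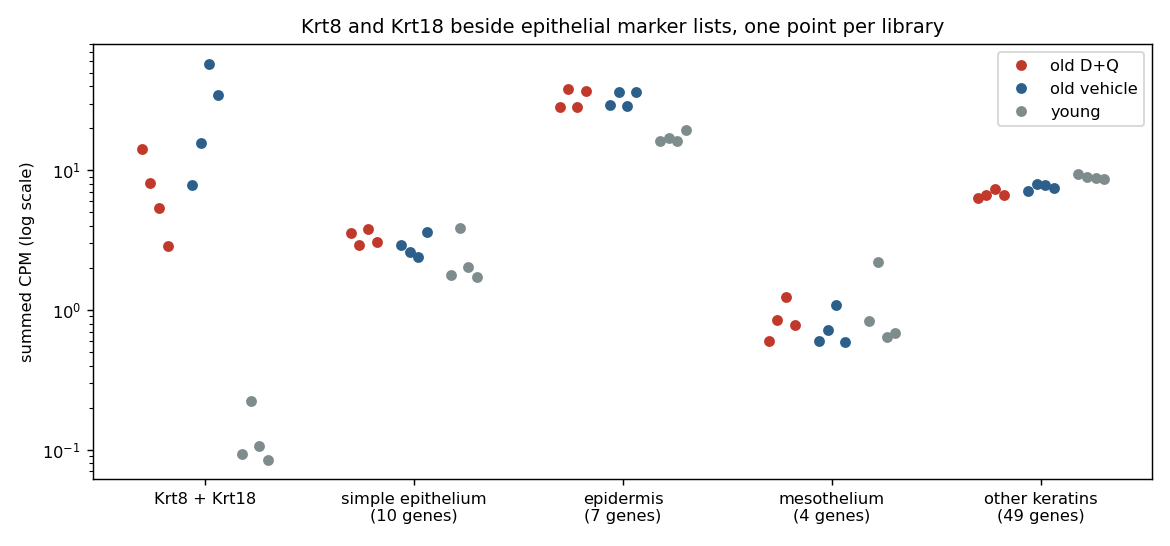
Summed CPM on a log axis for Krt8 plus Krt18, for 3 epithelial marker lists and for the other 49 keratins, 1 point per library, with old D+Q, old vehicle and young from left to right in each column. Krt8 plus Krt18 lies between 2.86 and 57.8 CPM in the old groups and at most at 0.223 CPM in young. The simple epithelium sums of both old groups overlap young through 1 young library at 3.88 CPM. The epidermis sum, which is mostly Trp63, is higher in both old groups.

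Of 49 further keratin genes 25 had 0 reads in all libraries, 4 had enough reads to be tested, and 0 were called higher in any comparison. Krt222, a keratin-like gene and the most read of them, fell in both old groups, with 2.03, 2.17, 2.38 and 2.93 CPM in D+Q muscle, 2.58, 2.11, 2.93 and 2.2 CPM in old vehicle, and 4.61, 3.32, 5.64 and 4.48 CPM in young. Neither old group overlapped young. The log2 fold change was -0.92 ± 0.19 SE in D+Q over young (edgeR adjusted p = 0.0433) and -0.88 ± 0.19 SE in old vehicle over young (edgeR adjusted p = 0.0369). Both calls lay close to the threshold. The D+Q one held without young library 2 or D+Q library 4 and the old vehicle one without young library 2 or D+Q library 1 or 4, and they ended without any other library, with adjusted p up to 0.133 in each. Without young libraries 3 and 4 they stood at -0.74 and -0.69 (adjusted p = 0.308 and 0.259), and with the GC slope in the fit at -0.63 in both (0.0652 and 0.0466). Krt80 was 2.45-fold higher in old vehicle than in young without passing (edgeR adjusted p = 0.0661). Krt19, a type I chain that has been found beside Krt8 at the costameres of muscle fibres, had 81 reads in D+Q, 65 in old vehicle and 72 in young, with log2 fold changes of 0.05 ± 0.38 SE in D+Q over young and -0.35 ± 0.39 SE in old vehicle over young.

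Genes most like Krt18 were sought among all tested genes by Pearson's r of log2 CPM over the 12 libraries, as a description. The closest were Cpne2, a calcium-dependent phospholipid-binding protein (r = 0.983), the small GTPase gene Rab13 (0.975), Mfsd7a, a membrane transporter of the major facilitator family (0.973), Derl1, a channel component of endoplasmic reticulum quality control (0.969), and the cytochrome P450 gene Cyp4f14 (0.969). For Krt8 they were Dupd1 (0.973), a dual-specificity phosphatase, App (0.973), the amyloid precursor, Myl12a (0.963), a regulatory myosin light chain of non-muscle and smooth muscle myosin, Cpne2 (0.962) and Derl1 (0.961). The 12 points behind each r share the division into old and young libraries. Cpne2 had 42.6, 23.1, 21.7 and 16.3 CPM in D+Q muscle, 31.8, 36.8, 51.9 and 54.5 CPM in old vehicle, and 6.29, 7.62, 4.29 and 3.91 CPM in young. In D+Q its libraries followed the order of Krt18, which its choice by r over these same libraries favours. In old vehicle Cpne2 was highest in library 4 and Krt18 in library 3. Mfsd7a had 7.33, 6, 4.96 and 5.1 CPM in D+Q muscle, 8, 11.7, 14.7 and 12.5 CPM in old vehicle, and 2.56, 2.56, 2.38 and 1.73 CPM in young, so that no old vehicle library overlapped a D+Q or a young one. Its log2 fold change in D+Q over old vehicle was -1 ± 0.20 SE, which did not pass. Of tested genes, 2.18% did not overlap between D+Q and old vehicle and 9.35% between old vehicle and young. Nothing is read from the separation, since Mfsd7a was chosen for following Krt18, whose mean was highest in old vehicle.

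Des, the gene of desmin and the most abundant member per length in all 3 groups, lies on the plus strand at chr1:75360329-75368579. It had 3805, 2603, 2943 and 1912 CPM in D+Q muscle, 1970, 2168, 3160 and 3408 CPM in old vehicle, and 1592, 2424, 1081 and 984 CPM in young. The groups overlap through young library 2, which stood above D+Q library 4 and old vehicle libraries 1 and 2. The mean was 2816 ± 787 CPM in D+Q muscle, 2676 ± 713 CPM in old vehicle and 1520 ± 659 CPM in young (SD, n = 4). The log2 fold change was 0.89 ± 0.30 SE in D+Q over young (edgeR adjusted p = 0.187), 0.82 ± 0.30 SE in old vehicle over young (edgeR adjusted p = 0.209) and 0.07 ± 0.29 SE in D+Q over old vehicle (edgeR adjusted p = 1). Old vehicle over young passed without young library 2 (1.11, adjusted p = 0.0319) and with the GC slope in the fit (0.66 ± 0.17 SE, adjusted p = 0.0426), and stood at 0.41 without young libraries 3 and 4 (adjusted p = 0.812). D+Q over young passed without young library 2 as well (1.17, adjusted p = 0.0271), and stood at 0.49 without young libraries 3 and 4 (adjusted p = 0.845). The last 368 bases of Des overlap the antisense gene Gm15179, which had 15328 reads over all libraries against 1195697 of Des.

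Synm encodes synemin, a large filament protein that joins desmin and binds the dystrophin complex, and lies on the minus strand at chr7:67730161-67759742. It had 877, 800, 714 and 783 CPM in D+Q muscle, 705, 732, 814 and 730 CPM in old vehicle, and 919, 754, 1095 and 993 CPM in young. Young libraries 3 and 4, lowest for Des, were highest for Synm. The log2 fold change was -0.24 ± 0.12 SE in D+Q over young (edgeR adjusted p = 0.288) and -0.34 ± 0.12 SE in old vehicle over young (edgeR adjusted p = 0.193). Without young library 2 both passed, at -0.37 (adjusted p = 0.0422) and -0.45 (adjusted p = 0.0276), and without young libraries 3 and 4 they were -0.08 and -0.17. Between the old groups the value was 0.09 ± 0.12 SE.

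Sync encodes syncoilin, a filament-like protein that binds desmin and alpha-dystrobrevin, and lies on the plus strand at chr4:129287617-129308559. It had 54.2, 48.1, 44.6 and 41.6 CPM in D+Q muscle, 52.2, 55, 52.6 and 59.5 CPM in old vehicle, and 38.2, 32, 40.2 and 44.1 CPM in young. Every old vehicle library stood above every young one, and D+Q lay between the other groups and overlapped both. Sync rose in old vehicle over young, with a log2 fold change of 0.51 ± 0.12 SE (1.42-fold, edgeR adjusted p = 0.047). The call sat close to the threshold: it held without 3 of the 12 libraries, young libraries 2 and 4 and D+Q library 4, and ended without any of the others, with adjusted p between 0.059 and 0.192. It held in DESeq2 (adjusted p = 0.008) and limma-voom (adjusted p = 0.0446) and ended in the other 6 settings tried: RLE factors (adjusted p = 0.0644), no filter (0.0889), the 2-group fit (0.0992), the replicate block (0.137), the GC slope in the fit (0.34 ± 0.15 SE, 0.202) and without young libraries 3 and 4 (0.64 ± 0.13 SE, 0.0691). In D+Q the value was 0.29 ± 0.12 SE over young (edgeR adjusted p = 0.248) and -0.22 ± 0.12 SE over old vehicle (edgeR adjusted p = 1). Sync overlaps the opposite-strand gene Rbbp4 by 1460 bases. Rbbp4 had 47358 reads against 23743 of Sync and a log2 fold change of -0.06 ± 0.14 SE in old vehicle over young, and the strand setting of the counting is not given in the sources used here.

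Of 15 partner genes that bind, anchor, fold or degrade these filaments in muscle, such as Cryab, Flnc, Dmd, Dtna and Neb, all 15 were tested and 0 passed in any comparison. Their median log2 fold change was 0.143 in D+Q over young, 0.141 in old vehicle over young and -0.002 in D+Q over old vehicle, beside -0.003, -0.01 and 0.01 for all tested genes. Cryab, a small heat shock protein that binds desmin, came closest, with 1216, 1411, 1524 and 809 CPM in D+Q muscle, 989, 1254, 1694 and 1634 CPM in old vehicle, and 762, 940, 442 and 566 CPM in young. Its log2 fold change in old vehicle over young was 1.04 ± 0.26 SE (edgeR adjusted p = 0.0678). The most read partner was Neb, the gene of the thin filament ruler nebulin, at -0.05 ± 0.13 SE in D+Q over young and -0.08 ± 0.13 SE in old vehicle over young.

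**Figure D3:**
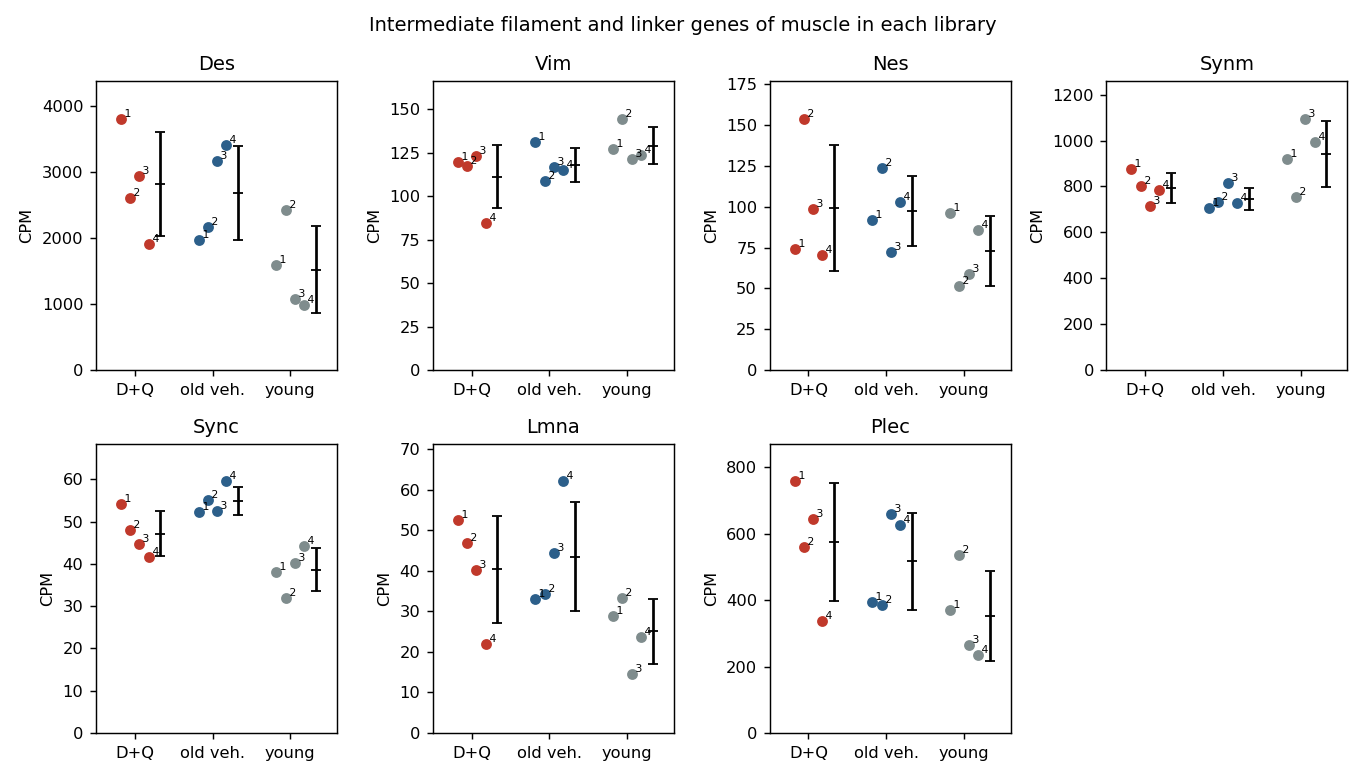
Level in CPM of the 7 members other than the keratins, 1 point per library with its replicate number, for old D+Q, old vehicle and young, with the mean and SD of 4 libraries to the right of each group. For Sync every old vehicle library (52.2 to 59.5 CPM) is above every young one (32 to 44.1 CPM), and for the other 6 genes the old vehicle and young points overlap.

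Vim encodes vimentin, the filament of fibroblasts, endothelium and leukocytes, and lies on the plus strand at chr2:13573927-13582826. It had 120, 118, 123 and 84.6 CPM in D+Q muscle, 131, 108.5, 117 and 115 CPM in old vehicle, and 127, 144.5, 121 and 124 CPM in young. D+Q library 4 was the lowest of all libraries and the other D+Q libraries lay within the range of old vehicle. The log2 fold change was -0.21 ± 0.12 SE in D+Q over young, -0.13 ± 0.12 SE in old vehicle over young and -0.08 ± 0.12 SE in D+Q over old vehicle, with edgeR adjusted p of 0.334, 0.577 and 1. Without D+Q library 4 the last value was 0.03. Markers of cells that hold vimentin, whose part in its level was not tested, went in different directions. The 5 fibroblast markers summed to 553 to 685.5 CPM in D+Q muscle, 577.5 to 759 CPM in old vehicle and 682 to 858 CPM in young and had a median log2 fold change of -0.244 in old vehicle over young with 0 called, the 5 endothelial markers 0.03 with 0 called, and the 4 leukocyte and macrophage markers 0.547 with 1 called, Cd68, a lysosomal protein of macrophages (0.86 ± 0.16 SE, edgeR adjusted p = 0.0176). That call ended without old vehicle library 1, 3 or 4 (adjusted p 0.0513 to 0.0552) and without young libraries 3 and 4 (0.137). Cd68 stood at 2.22 to 3.26 CPM in D+Q muscle, 4.08 to 4.28 CPM in old vehicle and 1.74 to 2.58 CPM in young, with no overlap between D+Q and old vehicle, where its log2 fold change was -0.64 ± 0.16 SE (unadjusted p = 0.00173, edgeR adjusted p = 1), and 0.22 ± 0.16 SE in D+Q over young. The mural, Schwann and satellite cell lists had 0 calls in any comparison.

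Nes encodes nestin, which in adult muscle is kept at the neuromuscular and myotendinous junctions and in satellite cells, and lies on the plus strand at chr3:87971078-87980451. It had 73.9, 154, 98.4 and 70.2 CPM in D+Q muscle, 91.5, 123.5, 72 and 103 CPM in old vehicle, and 96.3, 51.6, 58.6 and 85.8 CPM in young. All 3 groups overlap, and D+Q library 2 was highest. On the log2 scale Nes differed by 0.44 ± 0.27 SE in D+Q over young and 0.41 ± 0.27 SE in old vehicle over young, with edgeR adjusted p of 0.357 and 0.438, and with the GC slope in the fit the values were 0.19 and 0.22. Among 5 tested genes of regenerating or newly forming fibres, Myog, the myogenic factor myogenin that denervated fibres also induce, rose in both old groups. It had 14.1, 18, 14.6 and 9.36 CPM in D+Q muscle, 19.6, 43.3, 14 and 37.3 CPM in old vehicle, and 5.2, 3.97, 2.91 and 5.67 CPM in young. Its log2 fold change was 1.65 ± 0.35 SE in D+Q over young (edgeR adjusted p = 0.0453) and 2.68 ± 0.36 SE in old vehicle over young (edgeR adjusted p = 0.00242). The old vehicle call held without any 1 library, without young libraries 3 and 4 and with the GC slope in the fit. The D+Q call held only without young library 2, old vehicle library 2 or 3, or D+Q library 4, and ended without any of the other 8 (adjusted p 0.0591 to 0.137), with the slope (0.056) and without young libraries 3 and 4 (0.265). The libraries highest for Myog in old vehicle, 2 and 4, were also the highest for Nes, and library 3, the highest for Krt18, was the lowest for both. The list's most read gene, the perinatal myosin Myh8, did not pass (0.55 ± 0.23 SE in D+Q over young and 0.11 ± 0.23 SE in old vehicle over young).

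Lmna encodes the A-type lamins of the nuclear envelope and lies on the minus strand at chr3:88481148-88509956. It had 52.4, 46.8, 40.3 and 21.8 CPM in D+Q muscle, 33.1, 34.2, 44.5 and 62 CPM in old vehicle, and 28.9, 33.3, 14.6 and 23.6 CPM in young. D+Q library 4 lay with the young libraries, and young library 2 overlapped old vehicle library 1. On the log2 scale Lmna differed by 0.68 ± 0.30 SE in D+Q over young (edgeR adjusted p = 0.268) and 0.79 ± 0.30 SE in old vehicle over young (edgeR adjusted p = 0.232), and 0.37 and 0.48 without young libraries 3 and 4. Between the old groups the value was -0.11 ± 0.30 SE. Of the B-type lamins, Lmnb1, the most read of 10 further filament genes, had -0.18 ± 0.14 SE and Lmnb2 0.81 ± 0.28 SE in old vehicle over young, and neither passed. The 15 genes of lamina partners, such as Emd, Sun1, Syne1 and Tor1aip1, which tie the lamina to chromatin or to the cytoskeleton, had 0 calls in any comparison and a median log2 fold change of 0 in old vehicle over young.

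Plec encodes plectin, the linker between desmin and Z-discs, costameres, mitochondria and the nuclear envelope, and lies on the minus strand at chr15:76170974-76232574. It had 758, 560, 645 and 338 CPM in D+Q muscle, 395.5, 385, 661 and 625.5 CPM in old vehicle, and 370, 537, 266 and 236 CPM in young. Young libraries 3 and 4 and D+Q library 4 were the lowest, and young library 2 overlapped both old groups. On the log2 scale Plec differed by 0.71 ± 0.30 SE in D+Q over young (edgeR adjusted p = 0.259), 0.55 ± 0.30 SE in old vehicle over young (edgeR adjusted p = 0.371) and 0.15 ± 0.30 SE in D+Q over old vehicle. Without young library 2, D+Q over young passed (0.95, adjusted p = 0.0471). Without young libraries 3 and 4 the values were 0.34 in D+Q over young and 0.19 in old vehicle over young. Of 7 tested genes of other cytolinkers and desmosomes 0 passed in any comparison. The most read, Dst, which encodes the cytolinker dystonin, had 0.12 ± 0.08 SE in D+Q over young and -0.03 ± 0.08 SE in old vehicle over young. Dsp, the desmosomal plaque protein that holds keratins in epithelia, had 2 reads in D+Q, 6 in old vehicle and 1 in young.

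Des, Plec and Lmna had similar orders of libraries, which in part followed the GC slope. The 3 libraries with the lowest slope, young libraries 4 and 3 and D+Q library 4, were the 3 lowest for Plec and the 3 lowest for Lmna, and for Des they were among the 4 lowest. D+Q library 1, with the highest slope, was highest for Des and Plec and second highest for Lmna. Several libraries departed from that order. Counted from the lowest library, young library 2 ranked 10 for the slope but 7 for Des, 7 for Plec and 6 for Lmna. Old vehicle library 4 ranked 9 for the slope and 12 for Lmna, and D+Q library 3 ranked 11 and 8. Nes and Sync, at 55.5% and 54.2% GC, are richer in GC than Lmna at 53.1%. For both of them young library 2 was the lowest of all libraries. With the slope in the fit, the Plec value in D+Q over young was 0.29 ± 0.10 SE (adjusted p = 0.154) and in old vehicle over young 0.24 ± 0.10 SE (adjusted p = 0.191). Without the slope these values were 0.71 and 0.55, each ± 0.30 SE. Des stood at 0.67 ± 0.17 SE and 0.66 ± 0.17 SE in the same fit, and Lmna at 0.55 ± 0.25 SE and 0.69 ± 0.25 SE. The keratins kept 5.47 and 7.52 for Krt18 and 5.93 and 7.34 for Krt8. The slope was estimated from these same libraries, so a part of a true difference between groups that runs along GC content would be removed with it.

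**Figure D4:**
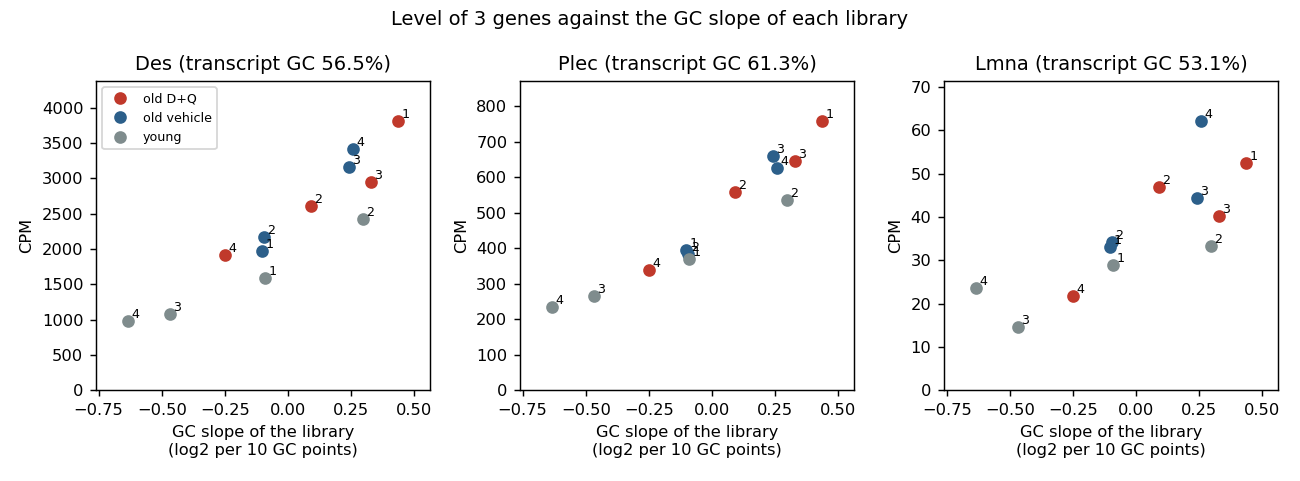
Level of Des, Plec and Lmna in CPM against the GC slope of each library (log2 units per 10 points of transcript GC, relative to the mean of all libraries), 1 point per library with its replicate number, coloured by group. Young libraries 3 and 4, at slopes of -0.469 and -0.633, hold the lowest Des and Plec levels, and D+Q library 1, at 0.434, holds the highest.

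Across the 3 comparisons, few members passed the test over all genes. In old vehicle over young 3 of 9 were called, Krt8, Krt18 and Sync, all higher, where 1.86% of 16146 tested genes were called, and the same 3 genes had groups that do not overlap, as did 9.35% of tested genes. Since that comparison led to the choice of the keratins, nothing is read from this count. In D+Q over young 1 of 9 was called, Krt18, where 0.892% of tested genes were called, and for Krt8 and Krt18 the groups did not overlap, as for 6.69% of tested genes. Nothing is read from these counts either, since the keratins were chosen on the same young libraries. For Krt8 the lowest D+Q library held only 5 reads. In D+Q over old vehicle 0 members were called in edgeR or DESeq2, where 0% of tested genes were called in edgeR, 11 genes in DESeq2 and 0 in limma-voom. In that comparison 1 member, Krt18, had an unadjusted p under 0.05, as had 349 genes or 2.16% of those tested, and 0 members had groups that do not overlap, against 2.18% of tested genes. The Krt18 count is not read as a result, since the keratins were chosen for their high level in these old vehicle libraries. The median log2 fold change of the 9 members was 0.682 in D+Q over young, 0.552 in old vehicle over young and -0.084 in D+Q over old vehicle, beside -0.003, -0.01 and 0.01 for all tested genes. These medians include the keratins, which were chosen on these libraries, so no shift of the members as a set is read from the medians. Without young library 2, 5 of 9 members were called in either comparison with young, the 2 keratins, Des and Synm in both, with Plec in D+Q over young and Sync in old vehicle over young. Calls over all genes were also more frequent without that library, at 11.9% of 16314 tested genes in D+Q over young and 6.26% in old vehicle over young. Nothing is read from the keratin calls without young library 2 either, since the keratins were chosen on the young libraries. The comparisons share libraries, so their values are not independent of each other.

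**Figure D5:**
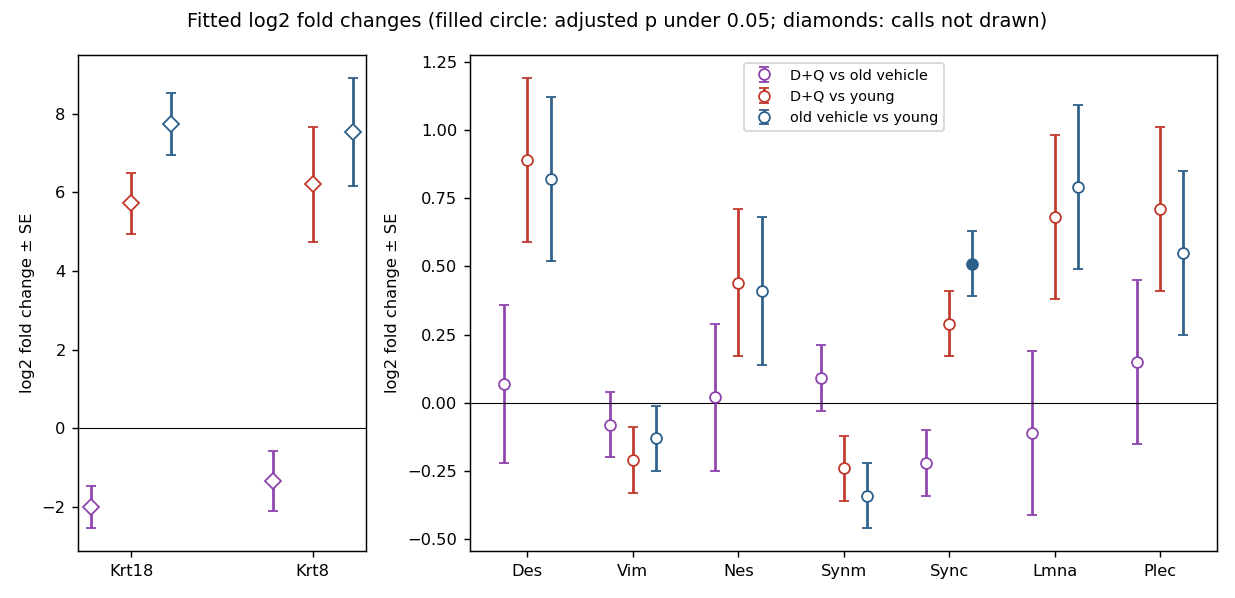
Fitted log2 fold changes with standard errors of Krt18 and Krt8 (left, diamonds, calls not drawn) and of the 7 other members (right, circles, filled where the adjusted p is under 0.05), for D+Q over old vehicle, D+Q over young and old vehicle over young. Among the circles only Sync in old vehicle over young is filled, at 0.51, and the D+Q over old vehicle values of those 7 genes lie between -0.22 and 0.15.

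Levels of different genes were compared per kilobase of gene length. Des led with 750 ± 210 CPM per kilobase in D+Q, 713 ± 190 in old vehicle and 405 ± 176 in young (SD, n = 4), and Synm came next with 101 ± 8.51, 94.8 ± 6.04 and 120 ± 18.3 CPM per kilobase. Neither overlapped its neighbour in that order in any group. Below them Plec, Vim, Sync and Nes followed at 31.8 to 15.4 in D+Q, 28.5 to 15.2 in old vehicle and 27.2 to 11.4 CPM per kilobase in young, with Vim above Plec in young. In D+Q and in young each of these 4 overlapped the next. In old vehicle Vim and Sync did not overlap. Krt18 had a place among them in old vehicle, at 18.5 ± 14.1 CPM per kilobase, where it overlapped both Sync and Nes. In D+Q it came below Lmna at 4.58 ± 2.6 and overlapped it, and in young it came far below Lmna at 0.0826 ± 0.0304 CPM per kilobase. Krt8 was the lowest member in every group, at 0.657 ± 0.67 in D+Q, 1.67 ± 1.35 in old vehicle and 0.00617 ± 0.0123 CPM per kilobase in young.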

How the data were processed

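Quadriceps mRNA of 12 libraries was sequenced, per the labels' protocols. The authors deposited read counts per gene as whole numbers, the base of every test, and RPKM values with gene positions and lengths, of which positions, lengths and the keratin share were used. Per the submitters' processing notes, STAR 2.6.1c, Subread and featureCounts 1.5.1 were used on mm10; the sources used here give neither their roles nor strand setting and annotation. No pair of libraries within a group agreed within counting noise (chi-square per gene 19.7 to 297), and pairs across groups were not checked.

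Genes passing filterByExpr (minimum count 10, total 15) were scaled by TMM and tested in 1 quasi-likelihood fit of 12 libraries in edgeR 4.0.16 (R 4.3.3), with Benjamini-Hochberg adjustment over 16146 genes and a threshold of 0.05; SE is the size of the log2 fold change divided by the root of F. The test was checked on simulated counts. DESeq2 1.42.0, limma-voom (limma 3.58.1), RLE factors, no filter, 2-group fits, a replicate block and leaving out each library were alternatives. A fit with GC slopes, from the longest GENCODE M21 transcript of 99.2% of tested genes, and one without young libraries 3 and 4 were added after seeing the data. Members and lists were chosen with earlier results of these data known. Named are the 9 members, list genes that were called, each list's most read gene and the 5 genes most like each keratin (predicted genes, Riken clones and pseudogenes left out). Krt80, Krt19, Krt10, Sfn, Cdh1, Cryab, Lmnb2 and the low-count markers were named after their values were seen. Correlations used log2 CPM with a prior count of 2. Intervals and limits cover counting error only.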

Additional observations from a re-analysis of the deposited data

Results flagged for a closer look

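Of 29 sets of 4 libraries checked for a value far from the rest, 2 stood out, and chance alone marks about 1 in 20. Vim in D+Q had 84.6 CPM in library 4, where the other D+Q libraries had 118 to 123 CPM. Krt8 in young had 0.0446 CPM in library 2, which is 2 reads, where the other young libraries had 0.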

How the results depend on the processing

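Of 539 member values under 20 other settings, 494 kept their direction and their side of the threshold, 22 lost a call, 11 gained one and 12 changed sign, all 12 in D+Q over old vehicle. In old vehicle over young 3 members were called, 3 as well with DESeq2, limma-voom and the GC slope (there Des in place of Sync), 2 with RLE factors, no filter and the 2-group fit, 1 under the replicate block and without young libraries 3 and 4, and with 1 library left out 1 (young library 1 or 3) to 5 (young library 2). In D+Q over young the 1 called member became 2 with DESeq2, without a filter and with the GC slope, 0 with limma-voom and without young libraries 3 and 4, and 1 to 5 with 1 library left out, 2 without D+Q library 4 and 5 without young library 2. Keratin calls in these counts are given as a description only. Genes called in old vehicle over young numbered 300, with 778 in DESeq2, 188 in the 2-group fit, 141 under the block, 737 with the GC slope, 80 without young libraries 3 and 4, 1022 without young library 2 and 146 to 190 without any 1 of the other young or old vehicle libraries. In D+Q over young they numbered 144, with 610 in DESeq2, 25 in the 2-group fit, 35 under the block, 365 with the GC slope, 15 without young libraries 3 and 4, 1935 without young library 2 and 44 to 80 without any 1 of the other young libraries or of D+Q libraries 1 to 3. In D+Q over old vehicle DESeq2 called 11 in place of 0, and leaving out a library gave 0 each time. The cause of these shifts was not tested. Values of D+Q over old vehicle that changed sign were those of Nes, -0.02 with limma-voom, -0.03 with the GC slope and -0.27 to 0.16 with 1 library left out, and in the last setting Des (-0.11 to 0.22), Vim (-0.13 to 0.03), Lmna (-0.27 to 0.11) and Plec (-0.01 to 0.34). The Krt18 share difference ran from -5.1 to 0.25 points with 1 library left out, turning positive without D+Q library 1, and was -1.95 points by RPKM and -2.29 with libraries paired by number. Replicate numbers share no stated source, and same-numbered libraries correlated from -0.4 to 0.41 in their deviations from group means, so the block pairs nothing known. Krt8 in D+Q over young has no 2-group value, since it missed that fit's filter. At these depths 3 reads limit Krt8 in young.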
